A study of Mus musculus with 9 samples.

Results

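A fat-rich diet alters the liver transcriptome, and a treatment given on top of that diet may move some of these transcripts back and leave others apart from their levels on a normal diet. The genes described here remained apart with and without the treatment, although some differed between treated and untreated mice. They were chosen by comparing all 6 livers of mice on the 60% fat diet, whether treated or not, with the 3 livers of mice on the normal diet (ND), and by keeping each gene whose 6 fat-diet values all lay above, or all lay below, the 3 ND values. Such genes are called separated. Of 10048 tested genes, 586 were separated, of which 215 were higher and 371 lower on the fat diet. With 6 livers against 3, some genes are separated by chance, and how many of the 586 were so was not tested. Liver RNA was measured by RNA-Seq in 9 male C57BL/6J mice, an inbred strain that becomes obese on such diets, with 1 library per mouse and 3 mice per group, at postnatal day 100. The ND group (mice 6, 7 and 9) ate a diet with 14% fat for 10 weeks and received no PRF. The HFD group (mice 1, 2 and 3) ate a diet with 60% fat for 10 weeks and received no PRF. The PRF 50 group (mice 3, 9 and 10) ate the same 60% fat diet for 10 weeks and was given PRF, a fraction of Jinkyool (Citrus sunki) leaves rich in polymethoxyflavones, at 50 mg/kg of body weight per day during the last 5 weeks. All mice were fasted before collection. The normal diet and the fat diet also differed in carbohydrate content, ingredients and manufacturer, so the effects of fat and of the other components cannot be told apart.

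Values are the deposited log2(FPKM + 1), where FPKM is a fragment count scaled to transcript length and library size, and a difference of 1 corresponds to a factor of 2 in FPKM + 1. A gene was tested if its FPKM averaged 1 or more in the 9 livers. At the edge of the choice, the gap between the nearest fat-diet and ND values was 5.75e-06 for Ikbip and 0.000384 for Rpl38, which were just inside, and -0.000173 for Rnft1 and -0.000214 for Kif2a, which overlapped and were just outside. With regard to the level, the separated genes Podn (1.01 FPKM) and Ccdc166 (1.02 FPKM) were just inside, and Ift80 (0.983 FPKM) and Smarcd1 (0.965 FPKM), with separated values, were just outside. Below the minimum, a further 109 symbols were separated upward and 61 downward. The gap was under 0.1 on the log2 scale for 416 of the 586 genes, with a median of 0.06. Read counts were not used here, but the low values gave the relative depth of the libraries. With HFD mouse 1 set to 1, the depth of HFD mice 2 and 3 was 1.17 and 1.60, that of ND mice 6, 7 and 9 was 1.06, 1.15 and 1.11, and that of PRF 50 mice 3, 9 and 10 was 0.981, 1.51 and 0.963. Hepatocyte transcripts were abundant in every library, with Apoa1 at a mean of 9561 FPKM, although albumin (Alb) was listed at 0 in all 9 livers. In whole liver RNA, fewer cells of a type and less RNA per cell cannot be told apart.

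The liver converts drugs, hormones and bile acids to excretable forms with cytochrome P450 enzymes, which oxidize them, and with transferases, which attach glutathione, glucuronic acid or sulfate. These genes respond to nuclear receptors such as PXR and CAR. The liver also activates thyroid hormone, degrades retinoic acid, secretes acute-phase proteins under the control of IL-6, and makes the iron hormone hepcidin. In rodents, the pulsed release of growth hormone in males maintains a set of liver genes through STAT5.

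Few of the separated genes passed a test adjusted over the whole transcriptome. In the limma fit of the 6 fat-diet livers against the 3 ND livers, 1 gene rose and 5 fell at a Benjamini-Hochberg adjusted p under 0.05, and all 6 of these genes were separated. Across all tested genes, being separated applied to 2.14% upward and 3.69% downward, and an adjusted p under 0.05 applied to 0.00995% upward and 0.0498% downward. Because separation and the fit use the same values, the overlap of the 2 criteria is a description. At an unadjusted p under 0.05 there were 1134 genes, including 187 of the 215 genes separated upward and 327 of the 371 separated downward. Most differences were small, with a median of 0.35 for the genes higher on the fat diet and -0.32 for those lower, against -0.02 over all tested genes. A difference above 1 on the log2 scale was found for 8 genes upward and 28 downward. The median level of the separated genes was 7.86 FPKM, near the 7.30 FPKM of all tested genes. When the HFD and PRF 50 mice were fitted as groups of their own, so that their difference did not add to the spread, the mean of both against ND gave 13 genes upward, of which 9 were separated, and 22 downward, of which 21 were separated. Beyond the 6 genes, the separated genes that passed in this fit were 9030619P08Rik, Adgrv1, Gbp3, Gna14, Lin7a, Plbd1, Serpina3m and Wipf3 upward. Downward they were Bhlhe41, Cadm4, Ces2a, Cyp3a11, Cyp3a25, Cyp3a59, Cyp4a12b, Gcat, Gm2a, Gnl3, Gsta2, Gstm6, Klf10, Myc, Raet1e and Ugt1a5.

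The 6 genes that passed belong to hormone inactivation and activation, drug oxidation, sulfide oxidation, glutathione conjugation and immune recognition. Dio1, the deiodinase that forms active thyroid hormone from thyroxine, was the gene that rose. Its values were 5.57, 5.81 and 6.34 in ND, 7.36, 7.33 and 7.48 in HFD and 7.16, 7.22 and 7.12 in PRF 50. Every fat-diet liver was at least 0.78 above the highest ND liver, and the ND livers varied more among themselves than the 6 fat-diet livers did. The difference was 1.37 ± 0.16 (SE, n = 6 and 3), a 2.59-fold higher FPKM + 1 (limma adjusted p = 0.0123).

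Cyp26a1, which hydroxylates and so inactivates retinoic acid, had values of 4.18, 4.28 and 4.01 in ND, 1.68, 1.83 and 1.45 in HFD and 2.35, 2.20 and 2.11 in PRF 50. All 6 fat-diet livers lay more than 1.6 below the ND livers, and within the fat diet the PRF 50 livers lay above the HFD livers. It fell by 2.22 ± 0.18 (SE), and FPKM + 1 was 4.66-fold higher in ND (limma adjusted p = 0.00132). Cyp2c55, a P450 enzyme that oxidizes arachidonic and linoleic acid, was at 3.16, 2.95 and 2.50 in ND, 0.84, 0.87 and 0.90 in HFD and 1.21, 0.71 and 0.52 in PRF 50. HFD and PRF 50 livers overlapped, and the fat-diet livers were near the limit of the scale with a mean of 0.811 FPKM against 6.43 FPKM in ND. The difference was -2.03 ± 0.17 (limma adjusted p = 0.00132). Ethe1, the mitochondrial dioxygenase that oxidizes sulfur from hydrogen sulfide, was at 5.82, 5.75 and 5.44 in ND, 4.35, 4.57 and 4.51 in HFD and 4.16, 4.19 and 4.41 in PRF 50. The nearest fat-diet and ND livers were more than 0.8 apart, and the difference was -1.31 ± 0.12 (limma adjusted p = 0.00244).

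Gstm4, a glutathione transferase of the mu class, had values of 5.31, 5.67 and 5.28 in ND, 4.50, 4.59 and 4.41 in HFD and 4.30, 4.08 and 4.17 in PRF 50. Its lowest values were in the PRF 50 livers, all of them below the HFD livers, and the diet difference was -1.08 ± 0.13 (limma adjusted p = 0.0190). Raet1d, a ligand of the NKG2D receptor of natural killer cells, was at 5.85, 5.52 and 5.86 in ND, 3.74, 3.78 and 3.28 in HFD and 3.15, 3.46 and 1.97 in PRF 50. The ND livers agreed within 0.4, while PRF 50 mouse 10 lay well below the other fat-diet livers, and the difference was -2.52 ± 0.34 (limma adjusted p = 0.0344). The neighbouring Raet1e was at 3.67, 3.70 and 4.33 in ND and 1.59, 2.26 and 1.07 in HFD, and at 1.36 and 1.77 in PRF 50 mice 3 and 9, while PRF 50 mouse 10 was at 7.25e-05. In the GENCODE annotation (GRCm38), Raet1e at chr10:22158569-22374139 encloses Raet1d at chr10:22360552-22374139, so reads of these genes may have been split between them and the value of each is uncertain. Leaving out 1 mouse ended 3 of the 6 calls. Without ND mouse 6 the adjusted p was 0.0701 for Dio1, 0.0993 for Gstm4 and 0.234 for Raet1d, and without ND mouse 7 it was 0.129, 0.129 and 0.139. Raet1d also missed the threshold without ND mouse 9 (0.107), HFD mouse 3 (0.0633), PRF 50 mouse 3 (0.0616) or PRF 50 mouse 9 (0.0719), whereas Cyp26a1, Cyp2c55 and Ethe1 passed without any of the 9 mice in turn (limma adjusted p from 2.26e-05 to 0.0379 over the alternatives they entered).

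**Figure D1:**
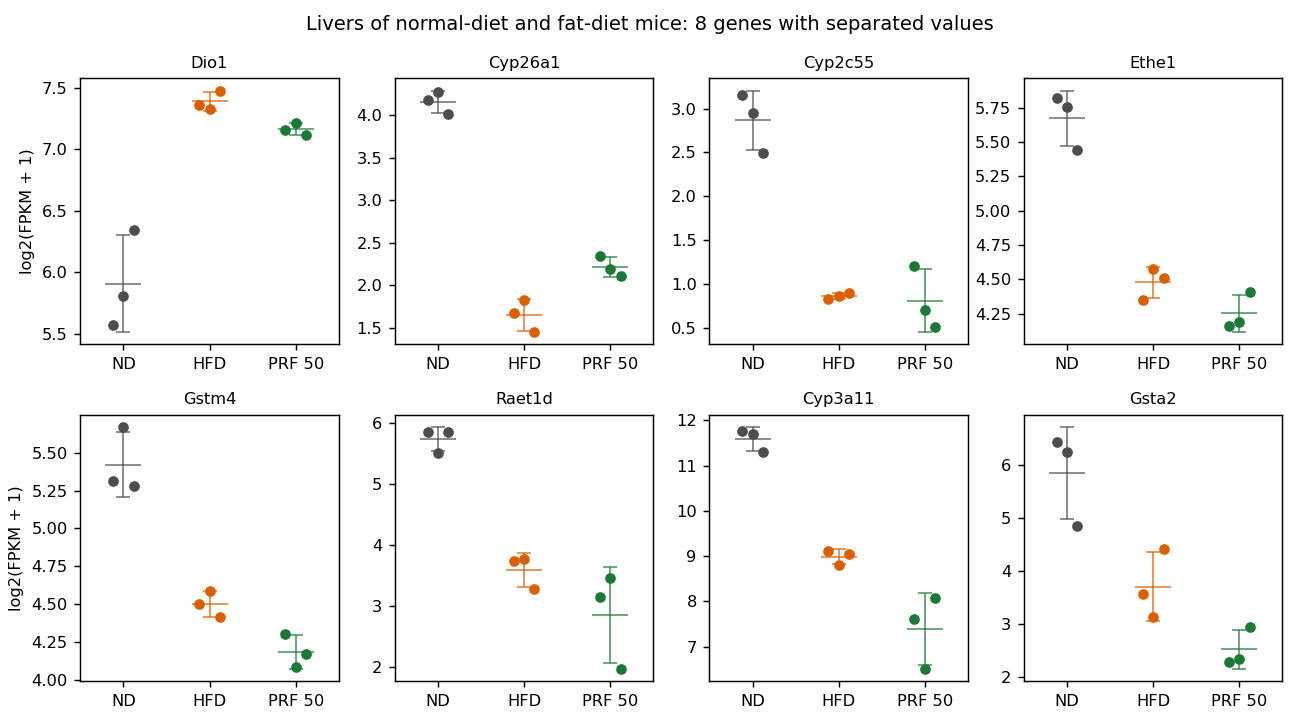
Level of 8 separated genes in each liver, as log2(FPKM + 1), with each point a mouse and the bar and whiskers the mean and SD of the 3 mice of a group; the axes do not start at 0. In each panel the 6 fat-diet livers lie apart from the 3 ND livers, above them for Dio1 and below them for the other 7 genes.

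The promoter of Cyp26a1 is shown because this gene was among those with the lowest adjusted p and because Cyp26a1 is known to be switched on by retinoic acid receptors, which bind direct repeats of a short motif. The 240 bases below, from RefSeq on GRCm38.p6 (plus strand, chr19:37697558-37697797), end 10 bases before the RefSeq start site, as these 10 bases lie within the GENCODE transcript and were left out. The sequence holds in capitals a direct repeat of AGTTCA with 5 bases between the copies, read on the opposite strand, at -32 to -16 from the RefSeq start site. Promoters of other named genes, among them Dio1, Ethe1, Cyp2c55, Raet1d, Cyp3a11 and Gstm4, were searched as well, and none of these held a repeat at this spacing.
Cyp26a1: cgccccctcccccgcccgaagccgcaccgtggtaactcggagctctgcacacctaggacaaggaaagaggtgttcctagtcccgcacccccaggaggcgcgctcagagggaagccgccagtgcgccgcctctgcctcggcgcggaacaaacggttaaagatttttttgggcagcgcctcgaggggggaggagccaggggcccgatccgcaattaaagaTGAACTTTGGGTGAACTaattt
Repeats of AGGTCA or AGTTCA in any combination at this spacing, on either strand, were found in 11 of 32851 RefSeq promoters of 250 bases (0.0335%) and in 2 of 9913 promoters of tested genes (0.0202%). Among the promoters of the genes separated downward, 1 of 368 held it, the one of Cyp26a1, and among those of genes separated upward 0 of 227 did, with 293 and 174 of the separated genes matched by symbol. The match is a description of the sequence, and binding was not measured.

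Cytochrome P450 genes of drug metabolism were among the separated genes. Of 38 tested genes, 8 were lower in every fat-diet liver and 0 were higher, and the median difference of the list was -0.19. Over all tested genes 3.69% were separated downward and 2.14% upward, shares that also stand beside the counts of the lists that follow. Without ND mouse 9, 14 were lower, and without PRF 50 mouse 10, 2 were higher. After quantile normalization 7 were lower and 1 higher, and without ND mouse 6, 9 were lower and 1 higher. Cyp2c55 alone passed the adjusted test of 6 against 3 livers. Cyp3a11, the main drug-oxidizing Cyp3a enzyme of mouse liver and a target of PXR, had the widest gap of all separated genes, at 2.18. Its values were 11.78, 11.70 and 11.30 in ND, 9.12, 8.81 and 9.04 in HFD and 7.60, 6.51 and 8.07 in PRF 50. The HFD livers lay between the ND and PRF 50 livers without overlap, and the difference of -3.40 ± 0.52 had an adjusted p of 0.0585 in limma, where the spread between the HFD and PRF 50 livers was part of the error. In the 3-group fit, the mean of both fat-diet groups against ND had an adjusted p of 0.000908 for Cyp3a11, 0.0218 for Cyp3a25 and 0.000629 for Cyp3a59. Cyp3a25 and Cyp3a59 had ranges of 8.31 to 8.54 in ND and 7.37 to 8.16 on the fat diet, and of 4.89 to 5.03 in ND and 3.09 to 4.59 on the fat diet. Both were lower in PRF 50 than in HFD livers as well, without overlap. These 3 genes lie together within chr5:145854426-146113287 on GRCm38, and members of the Cyp3a family are similar in sequence, so the values of each may hold reads of the others. Cyp2c29, a target of CAR and PXR, differed by -1.11 ± 0.19 (limma adjusted p = 0.0805), and Cyp2f2, a periportal P450, by -0.63 ± 0.15 (limma adjusted p = 0.185). Cyp2g1 was at 1.83 to 2.28 in ND and 0.56 to 1.52 on the fat diet, and Cyp2d9, a male-biased steroid hydroxylase, at 9.43 to 9.93 in ND and 8.97 to 9.40 on the fat diet. The remaining 30 tested genes of the list overlapped between the diets.

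Glutathione transferases were lower in part. Of 32 tested glutathione transferase and NRF2 target genes, 7 were lower in all fat-diet livers and 0 were higher, with a list median of -0.35. The lower count was 11 without HFD mouse 3 and 12 without ND mouse 9. After quantile normalization 6 were lower and 2 higher, and 1 was higher without HFD mouse 1 or without ND mouse 6. Gsta2, an alpha-class transferase, was at 6.44, 6.26 and 4.86 in ND, 3.57, 3.13 and 4.42 in HFD and 2.29, 2.33 and 2.94 in PRF 50. ND mouse 9 lay nearer to HFD mice 1 and 3 than to the other ND livers, and the difference of -2.74 ± 0.49 had a limma adjusted p of 0.0807. Of the 7 mu-class genes tested, which lie side by side on chromosome 3, 5 were separated, namely Gstm7, Gstm6, Gstm3, Gstm1 and Gstm4, from chr3:107926334-108044894. Gstm2 and Gstm5 of the same cluster were not separated, with differences of -0.51 and -0.13. Gstm1 was the most abundant of the 5, at a mean of 970 FPKM in ND and 552 FPKM on the fat diet (-0.80 ± 0.17 on the log2 scale), and Gstm3 differed by -1.19 ± 0.28. Their sequences are alike, so reads may be shared among them. Gsr, which restores reduced glutathione, was at 4.84 to 5.14 in ND and 4.40 to 4.66 on the fat diet, a difference of -0.51 ± 0.09 (limma adjusted p = 0.0807). Other NRF2 targets were not separated, among them Nqo1 (0.30), Gclc (-0.24), Hmox1 (1.11) and Srxn1 (0.13). Among 22 glucuronosyl- and sulfotransferase genes, Ugt1a5 and Ugt2b35 were lower, with ranges of 4.56 to 5.83 in ND and 2.85 to 4.06 on the fat diet, and of 6.20 to 6.57 in ND and 5.40 to 6.02 on the fat diet. Ugt1a5 shares its last exons with the other Ugt1a transcripts, so its value is uncertain. Ces2a, a carboxylesterase of drug and lipid hydrolysis outside these lists, was at 8.34, 8.27 and 8.02 in ND, 6.83, 5.45 and 6.29 in HFD and 6.50, 6.22 and 7.05 in PRF 50. The fat-diet livers lay at least 0.97 below the ND livers, with HFD mouse 2 the lowest, and the adjusted p was 0.0604 in limma.

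**Figure D2:**
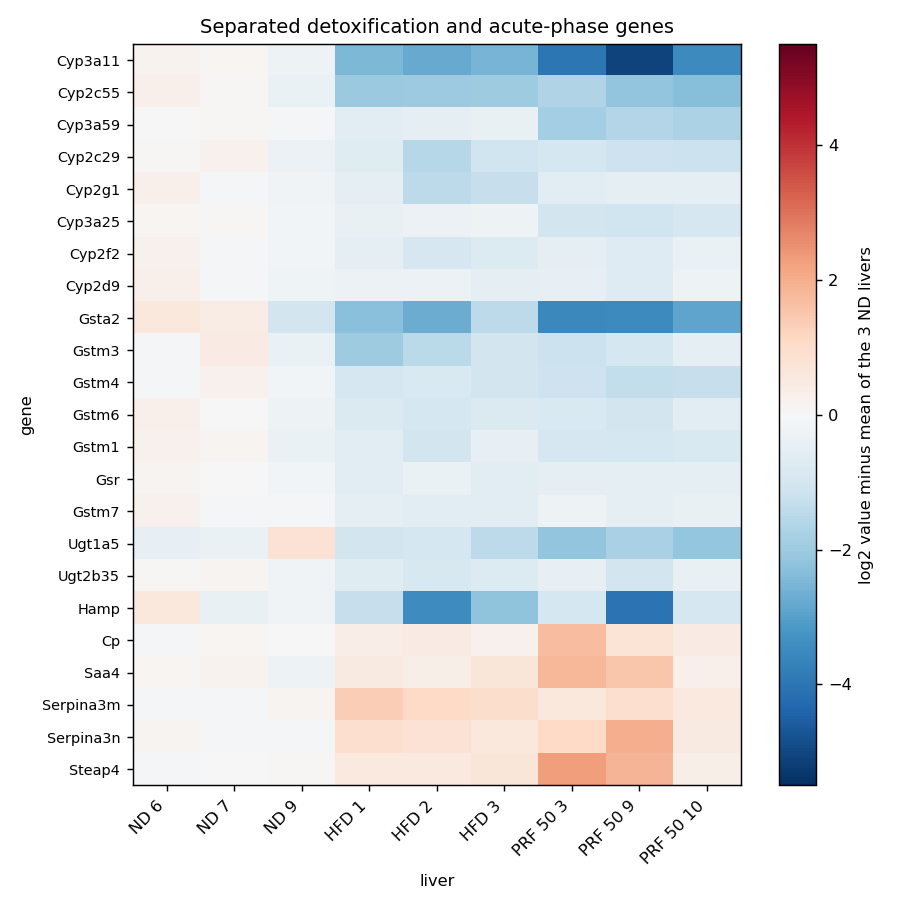
Separated genes of the P450, glutathione transferase, glucuronosyltransferase and acute-phase lists (rows) in the 9 livers (columns), coloured by the log2 value minus the mean of the 3 ND livers. The detoxification genes are below the ND mean in all 6 fat-diet livers, and 5 of the 6 acute-phase genes are above it.

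Genes that depend on growth hormone and sex were also represented downward. Of 28 tested, 4 were lower in all fat-diet livers and 0 were higher, although the median of the list was -0.09. The higher count was 1 when ND mouse 6, ND mouse 9 or PRF 50 mouse 10 was left out. Cyp4a12b, a male-predominant fatty-acid omega-hydroxylase, was at 6.28, 4.89 and 5.23 in ND, 2.23, 1.04 and 2.20 in HFD and 2.89, 3.17 and 3.49 in PRF 50. HFD livers were lowest and PRF 50 livers lay between HFD and ND. The difference from ND was -2.96 ± 0.50 (limma adjusted p = 0.0705). Elovl3, a male-predominant elongase of very long fatty acids, differed by -1.21 ± 0.22 (limma adjusted p = 0.0973), and Cish, a feedback inhibitor induced by STAT5, by -1.83 ± 0.40 (limma adjusted p = 0.178). For Cish, PRF 50 mouse 10 (3.33) lay close to the lowest ND liver (3.67). Igf1, the main endocrine product of growth hormone signaling, was not separated, with a difference of -0.12, and Ghr differed by 0.07.

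The acute-phase list was the list with the most members upward. Of 30 tested acute-phase and IL-6 signaling genes, 5 were higher in all fat-diet livers, 1 was lower and 0 passed the adjusted test, with a median of 0.58. Without PRF 50 mouse 10, 9 were higher. Serpina3m and Serpina3n, neighbouring protease inhibitors on chromosome 12 whose similar sequences make each value uncertain, differed by 0.91 ± 0.18 and 0.98 ± 0.28 (limma adjusted p = 0.124 and 0.288), and Serpina3m had an adjusted p of 0.0254 in the 3-group fit. Serpina3m was at 7.14, 7.19 and 7.41 in ND, 8.60, 8.34 and 8.21 in HFD and 7.83, 8.18 and 7.77 in PRF 50. Its HFD livers were above its PRF 50 livers, whereas Steap4, a metalloreductase induced by inflammation, was at 4.83, 4.89 and 4.94 in ND, 5.41, 5.45 and 5.54 in HFD and 7.20, 6.76 and 5.22 in PRF 50. Here PRF 50 mice 3 and 9 stood above all others and PRF 50 mouse 10 was the lowest of the fat-diet livers. Saa4, the constitutive serum amyloid A, ranged over 6.87 to 7.32 in ND and 7.44 to 8.99 on the fat diet, and ceruloplasmin (Cp), the copper-carrying ferroxidase of plasma, over 7.79 to 8.04 in ND and 8.14 to 9.62 on the fat diet. The inducible Saa1 and Saa2 had larger mean differences, 2.13 and 2.52, but overlapped between the diets.

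Hamp, which encodes hepcidin, the inhibitor of iron export from cells, was the member that lay lower. Its values were 12.86, 11.87 and 12.10 in ND, 11.00, 8.82 and 10.08 in HFD and 11.31, 8.20 and 11.34 in PRF 50. HFD mouse 2 and PRF 50 mouse 9 were more than 3 below the ND livers, whereas PRF 50 mice 3 and 10 were within 0.6 of the lowest ND liver. The difference was -2.15 ± 0.69, with an adjusted p of 0.306 in limma.

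Transcripts of immune cells differed among the same livers, and their part in the acute-phase values was not tested. Of 14 tested macrophage markers, 0 were separated, with a median difference of 0.70, and all 14 had higher means on the fat diet. The summed FPKM of the 18 markers was 111, 206 and 272 in ND, 141, 226 and 225 in HFD and 762, 432 and 495 in PRF 50. The PRF 50 livers were thus above all others, while the HFD livers lay within the range of the ND livers, and Cd5l was the most abundant marker. The summed FPKM of the lymphocyte and neutrophil markers (18 genes, 15 of them in the tables) was 10.1, 15.9 and 10.1 in ND, 6.31, 5.63 and 7.20 in HFD and 61.5, 20.7 and 7.76 in PRF 50, and S100a8 was the most abundant. PRF 50 mouse 3 was highest in both sums and also had the highest Cp, Saa4 and Steap4 values. Serpina3m, of the same acute-phase list, was lower in that liver than in every HFD liver.

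**Figure D3:**
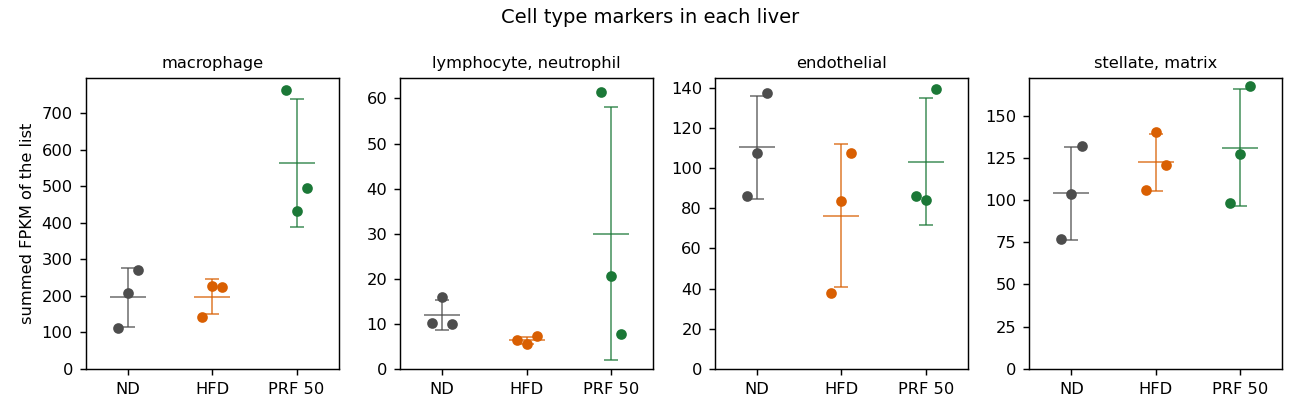
Summed FPKM of 4 lists of cell type markers in each liver, with each point a mouse and the bar and whiskers the mean and SD of the 3 mice of a group. Macrophage marker sums are between 111 and 272 in ND and HFD livers and between 432 and 762 in PRF 50 livers, and the endothelial and stellate sums overlap between the groups.

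Type I collagen genes were among those separated. Of 14 tested stellate cell and matrix markers, Col1a1 and Col1a2, which encode the chains of type I collagen, were separated upward and 0 were separated downward, with a list median of 0.27. None passed the adjusted test in limma, 3 had an unadjusted p under 0.05, and 1 was separated after quantile normalization. Col1a1 was at 0.65, 0.62 and 0.68 in ND, 1.15, 1.73 and 1.39 in HFD and 0.91, 0.99 and 0.99 in PRF 50. The HFD livers were above the PRF 50 livers, which in turn were above the ND livers, at levels near 1 FPKM. Col1a2 differed by 0.54 ± 0.14 and ranged over 0.93 to 1.32 in ND and 1.35 to 1.95 on the fat diet (limma adjusted p = 0.262). Col5a3, a type V collagen gene outside the list, was lower (1.76 to 2.14 in ND and 1.21 to 1.67 on the fat diet). The summed FPKM of the list was 76.8, 104 and 132 in ND, 106, 140 and 121 in HFD and 98.1, 127 and 167 in PRF 50, led by Dcn, and overlapped between the diets. Among 14 tested endothelial markers, 0 were separated, with a median of -0.23. Their summed FPKM was 86.1, 107 and 137 in ND, 37.7, 83.7 and 107 in HFD and 85.9, 84.3 and 140 in PRF 50, led by Clec4g, and HFD mouse 1 was the lowest.

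Markers of other cells had 0 separated members. Cholangiocyte markers (3 tested, led by Anxa4) summed to 62.0, 61.1 and 59.2 in ND, 68.0, 71.6 and 62.8 in HFD and 80.3, 63.4 and 68.5 in PRF 50, so the lowest fat-diet liver was slightly above the highest ND liver in this sum. Pancreatic acinar markers (1 tested, led by Cela1, with 10 of 15 listed at 0 in all livers) had their highest sum in PRF 50 mouse 10 (44.2). The 16 blood, muscle and gut markers (6 tested, led by Fabp2) overlapped in their sum between the diets. Adipocyte markers (5 tested) were led by Car3, which hepatocytes also express, and summed to 2503, 2084 and 1828 in ND, 2263, 1768 and 2456 in HFD and 806, 837 and 896 in PRF 50. ND and HFD livers overlapped in this sum, and all 3 PRF 50 livers were lower.

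Several lists of liver metabolism had a small number of members downward, where 3.69% of all tested genes were separated downward and 2.14% upward. Of 43 tested genes of amino acid catabolism and the urea cycle, 5 were lower in all fat-diet livers, 0 were higher, and the median was -0.05. All 5 gaps were under 0.1, and 2 genes were lower after quantile normalization and 8 without ND mouse 9. They were Ass1 (-0.82 ± 0.28), which forms argininosuccinate in the urea cycle, Gls2 (-0.32 ± 0.12), the liver glutaminase, Hal (-0.34 ± 0.11), which begins histidine breakdown, Cth (-0.45 ± 0.12), which makes cysteine from cystathionine, and Gnmt (-0.52 ± 0.17), which consumes methyl groups of S-adenosylmethionine. The adjusted p of each was between 0.282 and 0.378 in limma. The higher count of the list was 1 when ND mouse 6, 7 or 9 was left out. The other urea cycle genes Otc (-0.03) and Asl (-0.29) were not separated. Gcat, which degrades threonine and was not on the list, was at 5.22 to 5.53 in ND and 4.43 to 4.82 on the fat diet (difference -0.71 ± 0.11, limma adjusted p = 0.0604).

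In fatty-acid synthesis and desaturation, 3 of 24 tested genes were lower and 0 higher, with a median of -0.29. The lower count was 7 without ND mouse 7 and 5 without HFD mouse 2, and 2 were higher without ND mouse 9. Besides Elovl3 the 3 lower genes were Acss2, which makes acetyl-CoA from acetate (-0.98 ± 0.25, limma adjusted p = 0.257), and Dgat1, an enzyme of triglyceride assembly (-0.39 ± 0.12, limma adjusted p = 0.288). Scd1 and Fasn had differences of -1.66 and -0.92 but overlapped between the diets. Of 25 cholesterol genes, 1 was separated, a share near the 3.69% of all tested genes that were separated downward. It was Pmvk, a kinase of the mevalonate pathway, which was lower (4.98 to 5.49 in ND and 3.91 to 4.80 on the fat diet). Lower means on the fat diet were found for 23 of the 25, with a median of -0.30. In the bile acid list, with 27 tested and a median of -0.03, Abcg8, which with Abcg5 exports sterols into bile, was higher (0.44 ± 0.10, limma adjusted p = 0.178). Cyp39a1, an oxysterol hydroxylase, was higher too, at 2.78, 2.76 and 2.70 in ND, 4.16, 2.94 and 3.08 in HFD and 3.02, 2.81 and 3.06 in PRF 50. Its mean difference of 0.43 rested largely on HFD mouse 1, and PRF 50 mouse 9 was within 0.04 of an ND liver. Abcb11, the bile salt export pump, was lower, with a gap of 0.01 (6.48 to 6.88 in ND and 5.92 to 6.47 on the fat diet). Of this list, 4 genes were lower without ND mouse 9, 4 were higher without ND mouse 6, and 0 were lower after quantile normalization.

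Stress, clock and growth genes gave the remaining members, to be read beside the 3.69% of all tested genes separated downward and 2.14% upward. Of 23 tested genes of the ER and integrated stress response, 4 were lower and 0 higher, with a median of -0.05, and 2 gaps reached 0.1. Without ND mouse 9, 7 were lower, and after quantile normalization 2 were lower and 1 higher. The higher count was 2 without ND mouse 7, and 1 without ND mouse 9, PRF 50 mouse 9 or PRF 50 mouse 10. The 4 genes were the chaperone Hspa5 (-0.24 ± 0.11), its cochaperone Dnajb9 (-0.50 ± 0.13), the secreted Manf (-0.48 ± 0.14) and the transcription factor Atf4 (-0.55 ± 0.13, limma adjusted p = 0.179). The stress genes Ddit3 (-0.12) and Asns (0.10) were not separated. Among 18 clock genes, with a median of 0.06, the repressors Bhlhe41 and Bhlhe40 were lower, with ranges of 1.63 to 1.83 in ND and 0.55 to 1.24 on the fat diet, and of 5.31 to 5.59 in ND and 4.49 to 5.25 on the fat diet. Bhlhe41 had a difference of -0.86 ± 0.15 and an adjusted p of 0.0807 in limma. Of 7 tested cell cycle genes, Pcna (-0.25 ± 0.08) and Tyms (-0.18 ± 0.08), both needed for DNA synthesis, were lower, with a list median of 0.06. The hepatocyte markers included Hnf4a (-0.28 ± 0.11) and Cebpa (-0.45 ± 0.12), transcription factors that maintain the hepatocyte program, which were lower, while the other 12 tested markers overlapped. After quantile normalization 1 hepatocyte marker was lower and 1 higher, and the list median was 0.07 rather than -0.03. The summed FPKM of the list was 35483, 28645 and 26007 in ND, 34877, 28835 and 25394 in HFD and 36264, 32899 and 30443 in PRF 50. Among 29 interferon response and antigen presentation genes, with a median of 0.18, 1 was separated, so the count was small as it was over all tested genes. It was Gbp3, a guanylate-binding protein induced by interferon, which was higher. It was at 2.04, 2.02 and 2.06 in ND, 2.58, 2.43 and 2.83 in HFD and 2.70, 2.61 and 2.72 in PRF 50. ND livers agreed within 0.05, and the difference was 0.61 ± 0.09 (limma adjusted p = 0.0585).

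**Figure D4:**
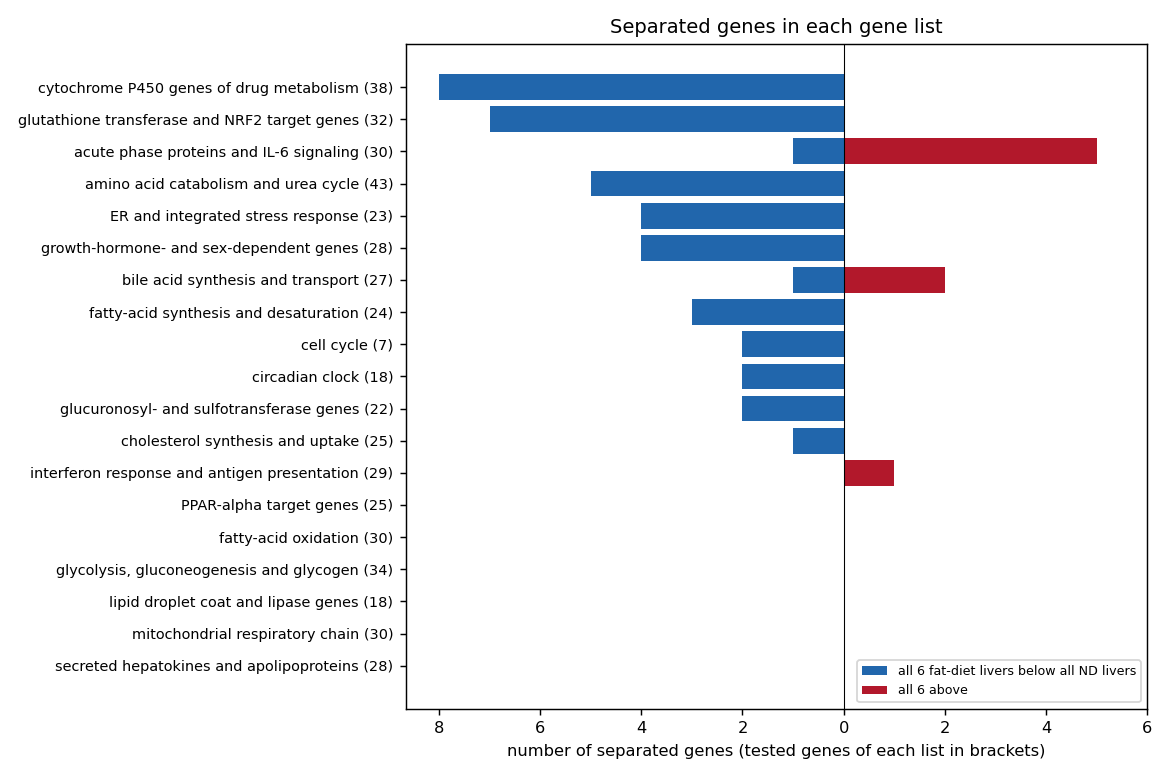
Number of separated genes in each of 19 functional gene lists, with genes lower in all 6 fat-diet livers drawn to the left and genes higher to the right, and the number of tested genes in brackets. The P450 list has 8 genes to the left and the acute-phase list has 5 to the right, while 6 lists have none on either side. Over all tested genes, 3.69% were separated downward and 2.14% upward.

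No member was separated in 6 of the functional lists, of lipid use, carbohydrate use, secreted proteins and respiration. These were 30 tested genes of fatty-acid oxidation (median 0.04), 25 PPAR-alpha target genes (median 2.19e-05), 18 lipid droplet coat and lipase genes (median 0.07), 34 genes of glycolysis, gluconeogenesis and glycogen (median 0.00164), 28 secreted hepatokines and apolipoproteins (median 0.07) and 30 subunits of the mitochondrial respiratory chain (median -0.14, with 29 of the 30 means lower on the fat diet, and 25 after quantile normalization). That normalization also left 2 hepatokine or apolipoprotein genes separated upward and 1 respiratory chain gene downward. At an unadjusted p under 0.05 in limma on the deposited values, the 6 lists had 0, 0, 0, 1, 4 and 1 genes. In the comparison of PRF 50 with HFD livers, lists with and without separated members were lower in part. There, 18 of the 30 fatty-acid oxidation genes, 15 of the 25 PPAR-alpha targets and 8 of the 18 lipid droplet genes were lower in PRF 50 livers at an adjusted p under 0.05 in limma, with 0 higher, and so were 10 of the 38 P450 genes, with 1 higher. Of 14 macrophage markers 7 were higher and 0 lower, where 2.11% of all tested genes were lower and 1.54% higher. The medians against ND given above take HFD and PRF 50 livers together. For PRF 50 minus HFD, the list median was -0.63 for fatty-acid oxidation, -1.35 for PPAR-alpha targets and -0.58 for lipid droplet genes. It was -0.35, -0.21 and -0.26 for the carbohydrate, secreted protein and respiratory chain lists. A median near 0 against ND thus does not show that HFD or PRF 50 livers alone were at the ND level. A gene whose PRF 50 values reach into the ND range does not count as separated. Over all tested genes 5.83% were separated, and at that share lists of 18 to 34 genes would each hold few separated members. Why the 6 lists had no separated member was not tested.

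Further genes with small p lay upward. Gna14, a G-protein alpha subunit of the Gq class, was at 1.72, 1.39 and 1.63 in ND, 2.46, 2.55 and 2.18 in HFD and 2.89, 2.65 and 2.69 in PRF 50. All 6 fat-diet livers were at least 0.46 above the ND livers, with the PRF 50 livers highest on average, and the difference was 0.99 ± 0.14 (limma adjusted p = 0.0542). Lin7a, a scaffold protein of cell polarity, differed by 0.62 ± 0.10, and Plscr1, an interferon-inducible phospholipid scramblase, by 0.60 ± 0.10 (limma adjusted p = 0.0645 and 0.0705). Spry4, an inhibitor of receptor tyrosine kinase signaling, was at 1.37 to 1.80 in ND and 1.83 to 2.40 on the fat diet. Enpp1, a nucleotide pyrophosphatase known to hinder insulin receptor signaling, was higher by 0.44 ± 0.10. The interferon-inducible ubiquitin ligase Herc6 differed by 0.49 ± 0.11, the galectin-related Lgalsl by 0.74 ± 0.16, the mitochondrial Lyrm1 by 0.50 ± 0.10, and Ttc39a, which had the third widest upward gap, by 0.99 ± 0.25.

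Lysosomal genes lay on either side of ND. Plbd1, a lysosomal phospholipase B-like protein, was at 4.35 to 4.48 in ND and 4.77 to 5.07 on the fat diet. Gm2a, an activator protein of ganglioside breakdown, was lower, at 5.41, 5.06 and 4.99 in ND, 4.53, 4.38 and 4.25 in HFD and 4.56, 4.44 and 4.49 in PRF 50. HFD and PRF 50 livers overlapped for Gm2a, and its difference was -0.71 ± 0.11 (limma adjusted p = 0.0585). Downward, Gnl3, a nucleolar GTPase of proliferating cells, differed by -0.66 ± 0.10 (limma adjusted p = 0.0585). Plk3, a stress-responsive kinase, was at 4.78, 3.81 and 3.71 in ND, 2.97, 2.25 and 2.36 in HFD and 2.40, 2.44 and 3.05 in PRF 50. ND mouse 6 was the highest by far, and the lowest ND liver was 0.66 above the highest fat-diet liver. Of the separated genes, 9 upward and 7 downward were gene models without a functional name, among them 9030619P08Rik with a difference of 2.43 ± 0.45 and ranges of 1.84 to 3.10 in ND and 3.41 to 5.80 on the fat diet.

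The direct comparison of PRF 50 with HFD livers shows how far the separated genes differed within the fat diet. It was made in limma with all 9 mice in 3 groups. Of the 586 separated genes, 10 had an adjusted p under 0.05 (1.71%), against 367 of all 10048 (3.65%). Separation disfavours large differences between the fat-diet groups, so these shares are given without a test. For 85 of the 215 genes above ND the PRF 50 mean was the higher one, and for 150 of the 371 genes below ND it was the lower one. The 10 genes were of 2 kinds. In 6 of them PRF 50 lay on the ND side of HFD, and in the remaining 4 it lay farther from ND.

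Cadm4, a cell adhesion molecule, was at 2.97, 2.63 and 2.47 in ND, 1.58, 1.20 and 1.08 in HFD and 2.34, 2.29 and 2.02 in PRF 50. Its PRF 50 values came to within 0.14 of the lowest ND liver. PRF 50 minus HFD was 0.93 ± 0.17 (limma adjusted p = 0.0219). For Slco2a1, a prostaglandin carrier, it was 0.81 ± 0.17, and for Cyp26a1 0.57 ± 0.12 (limma adjusted p = 0.0330 and 0.0372). Adgrv1, an adhesion receptor, was at 0.20, 0.13 and 0.35 in ND, 2.10, 1.91 and 1.82 in HFD and 0.83, 0.42 and 0.72 in PRF 50. Its ND livers were near 0, and PRF 50 mouse 9 was 0.07 above the highest of them. PRF 50 minus HFD was -1.28 ± 0.14 for Adgrv1 and -0.52 ± 0.10 for Ddo, which encodes D-aspartate oxidase (limma adjusted p = 0.00256 and 0.0291); the gene model 9030617O03Rik behaved alike at -0.51 ± 0.10.

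Genes of the other kind included the Cyp3a cluster. PRF 50 minus HFD was -1.60 ± 0.33 for Cyp3a11, -0.67 ± 0.11 for Cyp3a25 and -1.27 ± 0.10 for Cyp3a59 (limma adjusted p = 0.0330, 0.0139 and 0.000463), in each case below HFD livers that were already below ND. Klf10, a transcriptional repressor induced by TGF-beta, was at 4.42, 3.72 and 4.12 in ND, 3.32, 3.63 and 3.41 in HFD and 2.75, 2.48 and 2.15 in PRF 50. HFD mouse 2 was within 0.10 of the lowest ND liver, and all PRF 50 livers were lower still, with -0.99 ± 0.20 for PRF 50 minus HFD (limma adjusted p = 0.0285).

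**Figure D5:**
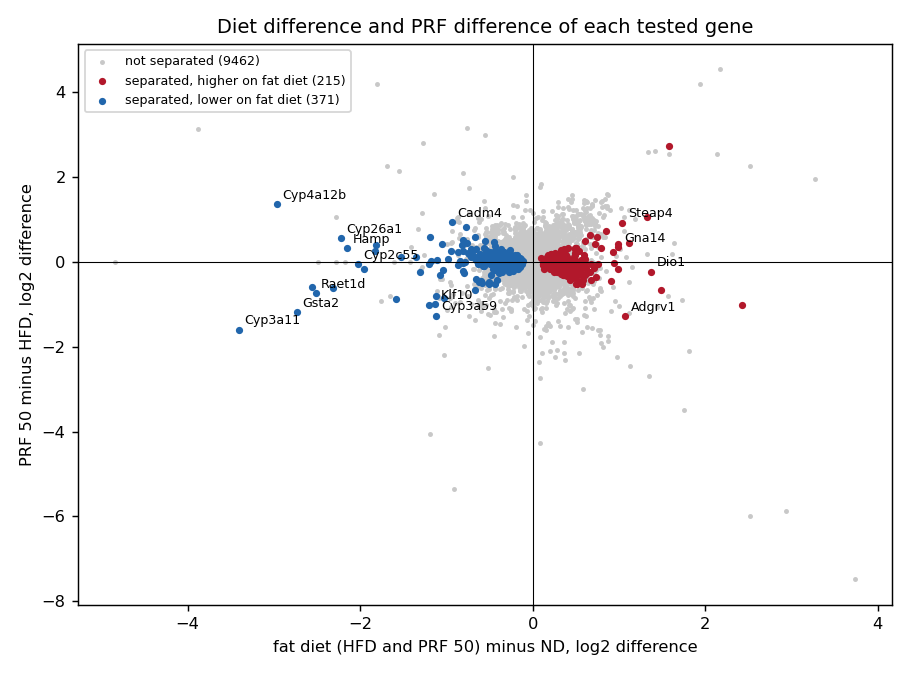
Each point is a tested gene, with the log2 difference between the fat-diet and ND livers on the horizontal axis and that between PRF 50 and HFD livers on the vertical axis; separated genes are coloured. Separated genes such as Dio1 and Cyp2c55 lie near 0 on the vertical axis, Cyp3a11 and Cyp3a59 lie below it, and Cadm4 and Cyp26a1 above it.

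HFD and PRF 50 livers were also compared with ND one at a time in the same 3-group fit. The comparisons share the 3 ND livers, so their values are given side by side only. HFD against ND gave 78 genes upward (0.776% of those tested) and 52 downward (0.518%) at an adjusted p under 0.05 in limma, and 26 and 31 of these were separated. PRF 50 against ND gave 50 upward (0.498%) and 52 downward (0.518%), of which 7 and 29 were separated. For Dio1 the differences were 1.49 ± 0.17 in HFD and 1.26 ± 0.17 in PRF 50 (limma adjusted p = 0.00529 and 0.0136). For Raet1d they were -2.15 ± 0.33 and -2.89 ± 0.33, and for Gstm4 -0.92 ± 0.12 and -1.24 ± 0.12. For Cyp3a11 they were -2.60 ± 0.33 in HFD and -4.20 ± 0.33 in PRF 50. For Ethe1 the pair was -1.19 ± 0.12 and -1.42 ± 0.12, and for Gstm6 -0.85 ± 0.16 and -0.83 ± 0.16.

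Separated genes of one direction were in part neighbours in the genome. Positions on GRCm38 were found for 355 of the genes below ND, and 58 of these (16.3%) had another such gene within 100 kb, compared with 1003 of 9107 genes that were not separated (11.0%). For genes above ND the numbers were 18 of 211 (8.53%) and 513 of 9107 (5.63%). These shares are descriptions, as neighbouring genes include copies of one family with similar sequences. The Gstm run was the longest, followed by runs of 3 genes, which were Cyp3a11, Cyp3a25 and Cyp3a59 on chromosome 5, Hal, Amdhd1 and Snrpf on chromosome 10, of which Hal and Amdhd1 both act in histidine breakdown, and Cnot3, Leng1 and Mboat7 on chromosome 7. Ethe1 and Cadm4 also lie near each other on chromosome 7. Of the placed separated genes, 97.2% upward and 99.4% downward were protein coding, against 97.7% of the genes that were not separated. Genes in this paragraph other than those described above were chosen after their values were seen.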

How the data were processed

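Libraries were poly(A)-selected. According to the submitters' notes, trimmed reads were aligned to mm10 by TopHat, Cufflinks gave FPKM, and a geometric normalization in EdgeR followed. The authors deposited 1 log2 value per gene symbol and mouse, and the pseudocount of 1 was inferred from a lowest value of 0. Versions, annotation and use of strand in counting are not given, so reads of overlapping genes cannot be told apart.

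The deposited log2 values of genes averaging 1 FPKM or more were tested by limma 3.58.1 in R 4.3.3 (lmFit, eBayes, trend=TRUE), with 6 fat-diet against 3 ND mice and, for PRF 50 vs. HFD, HFD vs. ND and PRF 50 vs. ND, with 3 groups. All p-values are two-sided, and adjusted ones are Benjamini-Hochberg over all 10048 genes.

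Genes named are the 15 higher and 15 lower separated genes that passed the adjusted test or, beyond those, had the smallest p, separated members of 28 lists, up to 5 genes per direction differing between PRF 50 and HFD, and the 5 widest gaps per direction (76 genes in all, of which 1 is not reported here). Members that were not separated and genes outside the lists are named for contrast, chosen after values were seen. Members and lists were chosen with earlier results of these data known, and 6 further lists after values were seen. Positions are from GENCODE M21 (96.3% of tested genes placed by symbol) and sequences from RefSeq. Alternatives were other minimum levels, a pseudocount of 0.1, quantile normalization, scaling by median of ratios, trend=FALSE, other groupings in the fit, a minimum gap of 0.1 and leaving out each mouse.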

Additional observations from a re-analysis of the deposited data

Results flagged for a closer look

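Of the 76 named genes, 4 had a fat-diet liver far from the other 5, by a gap to the nearest value above 0.625 of the range of the 6. About 1 in 20 groups is expected to pass this limit by chance. Cp was at 9.62 in PRF 50 mouse 3, with the next value at 8.67. Cyp39a1 was at 4.16 in HFD mouse 1, with the next at 3.08. Manf was at 3.95 in HFD mouse 3, where the other 5 livers were between 4.26 and 4.44. Raet1d was at 1.97 in PRF 50 mouse 10, with the next at 3.15. In each case the extreme liver lay farther from the ND livers than the other fat-diet livers did.

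For 10 separated genes, PRF 50 and HFD livers differed from each other (limma adjusted p under 0.05), and the cause of this was not tested. On the log2 scale PRF 50 minus HFD was 0.93 for Cadm4, 0.81 for Slco2a1 and 0.57 for Cyp26a1, which were below ND, and -1.28 for Adgrv1, -0.52 for Ddo and -0.51 for 9030617O03Rik, which were above ND. It was -1.60 for Cyp3a11, -1.27 for Cyp3a59, -0.99 for Klf10 and -0.67 for Cyp3a25, which were below ND and lower still in PRF 50. Without HFD mouse 3, 2 separated genes differed between PRF 50 and HFD, without HFD mouse 2 or without PRF 50 mouse 3, 4 did, without ND mouse 6, 20 did, and without ND mouse 9, 30 did.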

How the results depend on the processing

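Leaving out a mouse gave 251 to 607 genes separated upward and 415 to 916 downward, as fewer values had to be separated, with the most without ND mouse 9. It gave 0 to 6 genes upward and 3 to 22 downward at an adjusted p under 0.05 in limma, with the most without PRF 50 mouse 10, and 71 to 484 genes in PRF 50 vs. HFD, of which 2 to 30 were separated. With a minimum of 10 FPKM, 75 genes were separated upward and 172 downward, and 2 and 15 passed the adjusted test. Without a minimum, 324 were separated upward, and 3 passed downward. A pseudocount of 0.1 gave 2 genes upward past the adjusted test, quantile normalization 4 upward and 11 downward, and the 3-group fit 13 and 22. A gap of at least 0.1, chosen after the data were seen, left 55 genes upward and 115 downward, of which 5 differed between PRF 50 and HFD. Fewer genes or mice entered under some of these settings, and the cause of the shifts was not tested. Of the 215 and 371 separated genes, 212 and 355 remained so after median-of-ratios scaling and 173 and 286 after quantile normalization.

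Of the values of the named genes under the alternatives, 1112 kept their direction and their side of the threshold, 62 newly passed, 13 no longer passed and 0 reversed. Of 70 named genes that did not pass in the reported fit, 27 did in at least 1 alternative. Dio1, Gstm4 and Raet1d lost the call in 2, 3 and 8 of 16 alternatives. No paired analysis was possible because the groups share at most 1 animal number. With 3 ND mice, each ND value weighs heavily.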

Other observations

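Genes of ribosome production were also looked at. Of 81 tested cytosolic ribosomal protein genes, 8 were separated downward (Rpl30, Rpl12, Rpsa, Rplp2, Rplp1, Rps10, Rpl38 and Rplp0) and 0 upward, and all 81 had lower means, with a median of -0.29 against -0.02 over all genes (-0.29 after median-of-ratios scaling and -0.18 after quantile normalization, both with 81 of 81 lower). The count of 8 rested on single mice, as 39 were separated without HFD mouse 1 and 33 without ND mouse 7, and on narrow gaps, as 2 gaps reached 0.1. None passed the adjusted test in limma, and 19 had an unadjusted p under 0.05. Rpl30 was at 4.94, 4.76 and 4.72 in ND, 3.67, 3.98 and 4.15 in HFD and 4.19, 3.97 and 4.55 in PRF 50. Its ND livers agreed within 0.3, and PRF 50 mouse 10 came closest to them. Of 41 tested nucleolar genes of ribosome assembly, 10 were separated downward and 1 upward, with a median of -0.13. Downward, 2 remained at a minimum of 10 FPKM and 2 with a gap of at least 0.1. The 10 included Gnl3, Rrs1 (-0.35 ± 0.09), Ppan (-0.49 ± 0.14), and Nop56 and Nop58 (-0.39 ± 0.11 and -0.28 ± 0.11), core proteins of the particles that methylate ribosomal RNA, while Heatr1 was higher (0.25 ± 0.09). These lists and the ones that follow were made after values had been seen, so their counts are descriptions. Over all tested genes, 3.69% were separated downward and 2.14% upward.

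Alongside Hamp, 2 other targets of BMP-SMAD signaling, the pathway that sets hepcidin, were separated downward, namely Id3 (-1.18 ± 0.24, limma adjusted p = 0.158) and Smad7 (-0.60 ± 0.17, limma adjusted p = 0.288). Id3 was at 5.81, 6.08 and 5.70 in ND, 4.87, 4.67 and 4.48 in HFD and 5.42, 4.04 and 4.60 in PRF 50. The lowest value was in PRF 50 mouse 9, which also had the lowest Hamp. Hfe2, the BMP coreceptor hemojuvelin, was higher (0.37 ± 0.11). Of 24 tested iron and BMP-SMAD genes, these 4 were separated, and Id1 and Smad6 were not. Without ND mouse 9, 5 were lower, and without PRF 50 mouse 10, 2 were higher. Id1 had values of 3.84, 3.35 and 4.13 in ND, 3.43, 3.40 and 3.11 in HFD and 3.58, 1.32 and 2.85 in PRF 50.

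Among 24 tested genes of retinoid handling, 4 were separated downward, Cyp26a1, Aldh1a7 (-0.66 ± 0.17), Rdh11 (-0.62 ± 0.23) and the receptor Rxrb (-0.22 ± 0.08), with a median of -0.02. Of 11 tested genes of thyroid hormone handling and response, Dio1 was higher and Klf9 lower (-0.36 ± 0.09). After quantile normalization 1 gene of this list was higher and 0 were lower, so Klf9 was no longer separated. Thrsp overlapped, at 8.74, 6.84 and 9.24 in ND, 9.23, 9.19 and 9.05 in HFD and 7.46, 6.68 and 7.42 in PRF 50. Of 8 NKG2D ligand genes, only Raet1d and Raet1e passed the minimum level. Raet1a, below that minimum, was at 1.14, 1.41 and 1.45 in ND and between 0.18 and 0.75 on the fat diet.

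Nnt, a gene with a deletion of several exons in C57BL/6J, was between 4.84 and 5.45 in all 9 livers and not separated, and a value for the whole gene cannot check that deletion. Rad51b was above 2.1 in 5 fat-diet livers and at 0.41, 0.33 and 0.66 in ND, but PRF 50 mouse 10 was at 0.50, so it was not separated. The small RNA gene Rnu6 was listed at 22.44 in HFD mouse 2 and at 0 in the other 8 livers.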
